A study of Mus musculus with 6 samples.

Results

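Collagens are the main structural proteins of the extracellular matrix, and each molecule is a triple helix of 3 chains, each chain the product of its own gene. Fibrillar collagens build the cables of connective tissue, type IV collagens form the sheet-like network of basement membranes, and the remaining types link, coat or anchor these structures or span the plasma membrane. In tumors they are made largely by fibroblasts and by cells that rest on basement membranes, and collagen fibrils are also linked by enzymes such as lysyl oxidases. Transglutaminase 2, the product of *Tgm2*, joins glutamine and lysine residues of proteins, extracellular matrix proteins among them. The collagen chain genes were taken as every gene of the deposited table whose symbol reads Col, a type number, a and a chain number. This gave 42 of 20076 genes, which were placed in the classes fibrillar (11), basement membrane (6) and others (25) by their known type.

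RNA from primary ovarian tumors was sequenced in bulk, from 3 tumors of wild-type (WT) mice and 3 tumors of *Tgm2* knockout (*Tgm2* KO) mice. The labels give each tumor a genotype and a replicate number but no mouse identity. The paper describes the injections as bilateral, so whether any of the tumors shared a mouse cannot be told, and they were treated as separate mice. The WT mice were C57BL/6 and the *Tgm2* KO mice came from an established knockout line bred in-house, whose background is not given further. All 6 mice were 6 to 10 weeks old when used and carried tumors of ID8 *Trp53-/-* *Brca1-/-* cells, a mouse ovarian surface epithelial cancer line, injected under the bursa of the ovary 6 weeks before collection. The deletion of *Tgm2* was carried by the host mouse in all its cells, while the injected cells are labelled only by their loss of *Trp53* and *Brca1*. Each tumor therefore held cancer cells of 1 line and host cells of either genotype, and the question put to the collagen genes was whether their RNA differed between tumors grown in WT and in *Tgm2* KO hosts.

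Values are normalized counts, that is, estimated reads per gene divided by a size factor for each tumor, with 1 read worth between 0.942 and 1.09 normalized counts and column sums between 32316613 and 37717165 normalized counts. *Tgm2* was measured at 14978, 12155 and 13180 normalized counts in WT 1 to 3 and at 5853, 6071 and 8157 in *Tgm2* KO 1 to 3. Every *Tgm2* KO tumor lay below every WT tumor, and the log2 fold change was -1.02 ± 0.22 (SE, n = 3 per group; limma adjusted p = 0.391; exact permutation test p = 0.1, the smallest that 3 against 3 allows). The *Tgm2* RNA in the *Tgm2* KO tumors was not assigned to cancer or host cells, and the gene-level values do not show whether the deleted exons were among those read.

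The labels give the cell type as cancer cells, and the markers of other cells were read beside it. *Wt1*, a transcription factor of mesothelium and ovarian surface, ranged from 13131 to 20641 normalized counts over the 6 tumors without separating the groups. The keratin gene *Krt19* was at 15464, 18236 and 15516 in WT 1 to 3 and at 11810, 11260 and 14270 in *Tgm2* KO 1 to 3. Every *Tgm2* KO tumor thus lay below every WT tumor for this epithelial marker, as for 5.33% of all tested genes, and its log2 fold change was -0.40 ± 0.22 (SE, n = 3 per group; limma adjusted p = 0.889). The part of epithelial content in the collagen values was not tested. Genes typical of host cells were read in every tumor too, such as the fibroblast receptor gene *Pdgfrb*, between 1725 and 3470. Its expression in the cancer cells alone was not measured. The paper found immune cells in orthotopic tumors of this model by flow cytometry, and the tumors were read as mixed tissue. In such bulk RNA fewer cells of a type and less RNA per cell cannot be told apart.

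Single tumors stood apart in ways that bear on what follows. WT 3 was the lowest of the 6 tumors for 17 of the 21 collagen chains with a mean of at least 1000 normalized counts (81.0%, against 32.5% of the 7256 genes of that abundance). WT 1 was the highest for 57.1% of these chains, against 11.7% of those genes. *Tgm2* KO 1 was the highest tumor for 10 of the 21 chains with a lower mean (47.6%, against 13.0% of all 19667 tested genes). That background holds abundant genes too, and the share among genes of like abundance is not given here. The ovarian steroidogenic and granulosa markers of *Tgm2* KO 1 stood apart as well. *Hsd3b1*, an enzyme of steroid synthesis, was at 5526, 1.07 and 68.1 normalized counts in WT 1 to 3 and at 25704, 13.2 and 33.4 in *Tgm2* KO 1 to 3. The list did not move as one. *Inha*, an inhibin subunit, was highest in *Tgm2* KO 1 at 10367 but lowest in WT 1 at 2585, with 2892 to 5495 in the other 4 tumors, and *Nr5a1*, a regulator of steroid enzyme genes, was highest in *Tgm2* KO 3 at 6180, above 5753 in *Tgm2* KO 1.

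Sequence next to the start of chain genes that the results turn on is shown for *Col3a1*, the most abundant chain per length, *Col5a3*, whose 2 groups of tumors did not overlap, *Col10a1*, which was high in 1 WT tumor, and the stretch between the divergent genes *Col4a4* and *Col4a3*, which were high together in 1 *Tgm2* KO tumor. The sequences come from RefSeq on GRCm38.p6 and read 5′ to 3′ in the direction of the gene (for the last, of *Col4a4*). Capitals mark the letters TATAAA in *Col3a1* and *Col10a1*, beginning 117 and 32 bases before the start, and in *Col5a3* the letters CCAAT and, read on the opposite strand, GGGCGG. A further GGGCGG of *Col5a3*, on the same strand, begins 4 bases before the start and runs past the end of the stretch shown. The windows are chr1:45311388-45311537 on the plus strand for *Col3a1*, chr9:20815068-20815217 on the minus strand for *Col5a3*, chr10:34389831-34389980 on the plus strand for *Col10a1* and chr1:82586850-82586920 on the minus strand between *Col4a4* and *Col4a3*.
Col3a1: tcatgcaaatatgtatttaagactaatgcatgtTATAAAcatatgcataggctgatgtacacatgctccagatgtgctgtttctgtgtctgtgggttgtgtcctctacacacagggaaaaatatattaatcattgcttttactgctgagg
Col5a3: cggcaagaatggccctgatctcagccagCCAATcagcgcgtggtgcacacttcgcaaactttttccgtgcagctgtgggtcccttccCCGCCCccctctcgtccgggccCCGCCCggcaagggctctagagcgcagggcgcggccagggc
Col10a1: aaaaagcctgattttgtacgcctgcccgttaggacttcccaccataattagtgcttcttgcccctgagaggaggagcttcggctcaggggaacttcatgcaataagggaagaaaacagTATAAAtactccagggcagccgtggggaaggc
Col4a4 to Col4a3: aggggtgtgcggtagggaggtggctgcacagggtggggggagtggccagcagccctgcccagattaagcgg

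Promoter windows from 250 bases before to 50 bases after the start were available for 33 of the 42 chains. On either strand, the letters TATAAA were found in the windows of 5 of these chains (15.2%, against 13.6% of all 32851 promoter windows), and CCAAT in those of 12 (36.4%, against 37.4%). The letters GGGCGG were found in 22 (66.7%, against 35.7% of all windows). Chains were counted by gene, with a match in any window of the gene, while the background was counted by window. These shares are therefore not in like units, since a gene with several windows has more chances of a match. Whether the chains hold any of these letters more often than other genes was not tested. The 71 bases between *Col4a4* and *Col4a3* held none of these letters. The letters GGGCGG read on the opposite strand and CCAAT can share bases, and a match is only a description of the window.

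No collagen chain passed the test between WT and *Tgm2* KO tumors. None of the 42 chains passed an adjusted p under 0.05 with a log2 fold change over 1 in size, in either direction, where 20 of 19667 tested genes did so upward (0.102%) and 0 downward (0.0%). All 42 chains passed the filter on low values, and their lowest adjusted p was 0.759 (limma). At an unadjusted p under 0.05, 2 chains were higher in *Tgm2* KO tumors and 1 was lower, which is 7.14% of the chains against a background of 5.78% of all tested genes in either direction (3.4% higher and 2.38% lower). The 2 groups of tumors did not overlap for 2 of the 42 chains (4.76%), against 10.5% of all tested genes. The *Tgm2* KO tumors lay wholly above the WT tumors for 1 chain, against 5.18% of all tested genes, and wholly below them for 1 chain, against 5.33%.

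The median log2 fold change of the 42 chains was 0.35 on the log2(value + 1) scale, beside -0.03 over all tested genes, and 29 chains had the higher mean log2 value in *Tgm2* KO tumors (69.0%, against 47.3% of all tested genes). This median was carried by WT 3 in large part: without that tumor it was 0.046, and without WT 1 it was 0.77. By class, the median was 0.36 for the fibrillar, 0.35 for the basement membrane and 0.34 for the other chains, and without WT 3 it was -0.03, -0.01 and 0.12. With the mean of the white adipocyte markers of each tumor as a covariate the same medians were 0.82, 0.88 and 1.02, and 0.90 over all chains. This covariate was 8.52 to 9.26 in the WT and 9.79 to 11.39 in the *Tgm2* KO tumors. It separated the groups, so its part and that of genotype cannot be told apart. Split by abundance instead, the 21 chains with a mean of at least 1000 had a median of 0.36, with 19 higher and 2 lower, and the 21 others a median of -0.01, with 10 higher and 11 lower. The same figures for all genes of like abundance are not given here, so this split has no matched background.

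**Figure D1:**
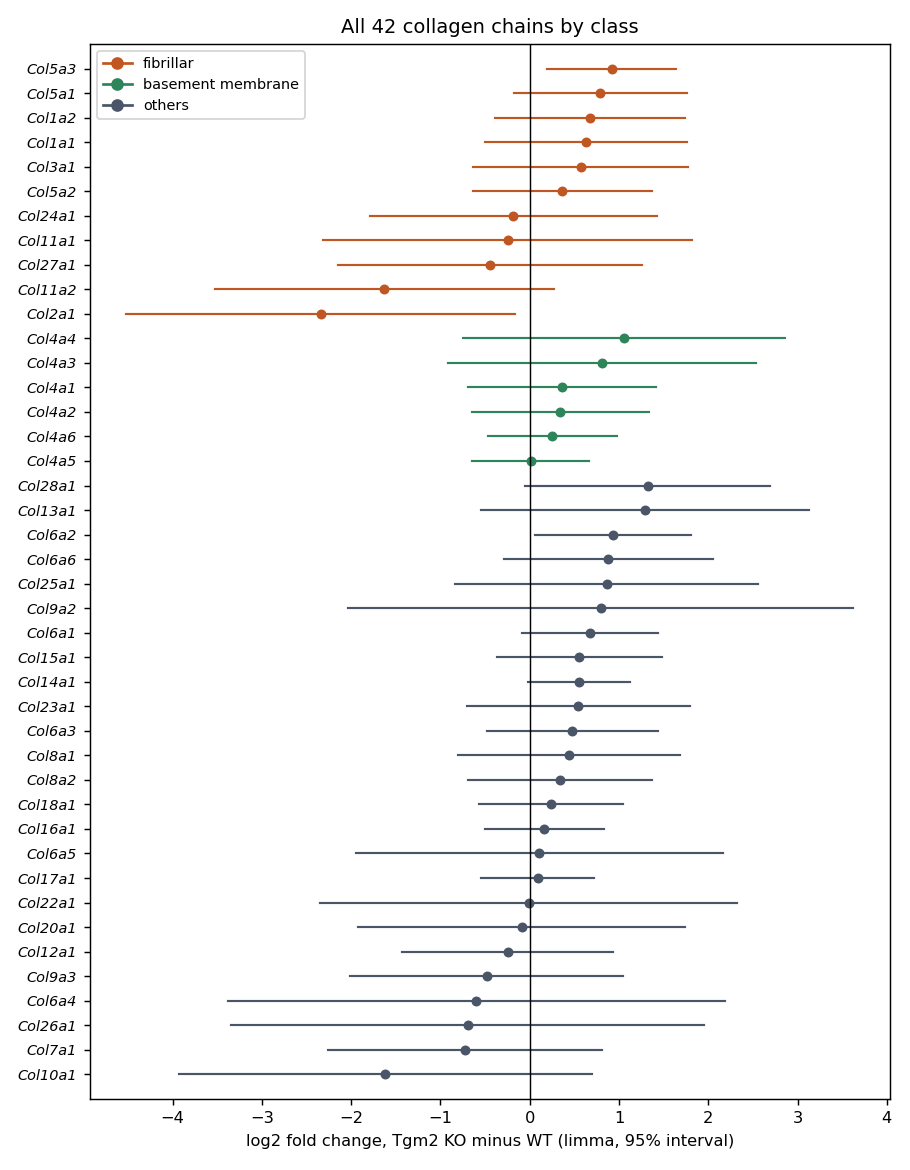
Log2 fold change (*Tgm2* KO minus WT, log2(value + 1) scale, limma, n = 3 tumors per group) of each of the 42 collagen chains, ordered by class and by size, with its 95% interval as a line. All but 3 intervals cross 0. Those of *Col5a3* (0.92) and *Col6a2* (0.93) lie above it and that of *Col2a1* (-2.34) lies below it, and none passed adjustment over all genes.

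Among the fibrillar chains, type I and type III, the bulk collagens of connective tissue, were the most abundant. Per kilobase of the longest coding transcript, *Col3a1* (chr1:45311538-45349706 on GRCm38) averaged 11822 normalized counts over the 6 tumors, *Col1a2* (chr6:4504814-4541544) 10211 and *Col1a1* (chr11:94936224-94953042) 9494, ahead of *Col4a1* at 4276 per kilobase. *Col3a1*, the only chain of type III collagen, was at 89267, 59808 and 22485 normalized counts in WT 1 to 3 and at 61727, 91251 and 70138 in *Tgm2* KO 1 to 3. *Col1a1*, which supplies 2 of the 3 chains of type I collagen, was at 89048, 31475 and 24789 in the WT and at 61481, 56942 and 74058 in the *Tgm2* KO tumors. *Col1a2*, its partner, was at 72692, 42179 and 20900 in the WT and at 60808, 65399 and 65687 in the *Tgm2* KO tumors. For these chains the WT tumors spread between 3.48-fold and 3.97-fold from lowest to highest, with WT 1 high and WT 3 low, and apart from *Col3a1* in *Tgm2* KO 2 the *Tgm2* KO values fell inside the WT range. The log2 fold changes were 0.57 ± 0.53 for *Col3a1*, 0.63 ± 0.50 for *Col1a1* and 0.68 ± 0.46 for *Col1a2* (SE, n = 3 per group; limma adjusted p = 0.908, 0.897 and 0.891). Without WT 3 they were 0.0061, 0.27 and 0.21, and without WT 1 they were 1.001, 1.19 and 1.11. Their 95% intervals reached from -0.63 to 1.78, from -0.50 to 1.77 and from -0.39 to 1.74, so these tumors leave room for a difference of more than 1 on the log2 scale in each.

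Type V chains, which join type I fibrils and limit their width, were next. *Col5a1* was at 9785, 4037 and 2627 normalized counts in WT 1 to 3 and at 8523, 7386 and 8542 in *Tgm2* KO 1 to 3. *Col5a2*, which lies 24614 bases from *Col3a1* on the opposite strand, was at 12043, 6987 and 3634 in the WT and at 5779, 10484 and 10765 in the *Tgm2* KO tumors. Both chains overlapped between the groups, with log2 fold changes of 0.79 ± 0.43 and 0.36 ± 0.44 (SE, n = 3 per group; limma adjusted p = 0.889 and 0.920). Without WT 3 they were 0.37 and -0.081, and without WT 1 they were 1.32 and 0.78. *Col5a3* (chr9:20770050-20815067, minus strand), a less abundant type V chain, was at 1077, 594 and 460 in the WT and at 1193, 1383 and 1206 in the *Tgm2* KO tumors. It was the only chain with every *Tgm2* KO tumor above every WT tumor, although *Tgm2* KO 1 exceeded WT 1 by little, and its log2 fold change was 0.92 ± 0.32 (SE, n = 3 per group; 95% interval 0.20 to 1.64; limma adjusted p = 0.759). Without each tumor in turn that value stayed between 0.65 and 1.27.

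The remaining fibrillar chains are those of cartilage and of minor fibrils, and they were scarce. *Col2a1*, the chain of type II collagen of cartilage, was at 25.8, 2.48 and 6.21 normalized counts in WT 1 to 3 and at 2.26, 0.583 and 0 in *Tgm2* KO 1 to 3. Every *Tgm2* KO tumor lay below every WT tumor, but 5 of the 6 values stand for under 10 reads, and the log2 fold change of -2.34 ± 0.95 (SE, n = 3 per group; limma adjusted p = 0.825) no longer had an unadjusted p under 0.05 with a pseudocount of 10 and was -1.54 without WT 1. *Col11a2*, a chain of type XI collagen, was at 148, 27.3 and 80.6 in the WT and at 30.8, 39.2 and 8.18 in the *Tgm2* KO tumors, and its groups overlapped. *Col11a1*, its partner in the trimer, was also mixed, with 681 in *Tgm2* KO 1 against 43.3 to 235 elsewhere. The minor chains *Col24a1* and *Col27a1* ranged from 17.7 to 68.2 and from 62.7 to 457 normalized counts, with overlap between the groups.

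**Figure D2:**
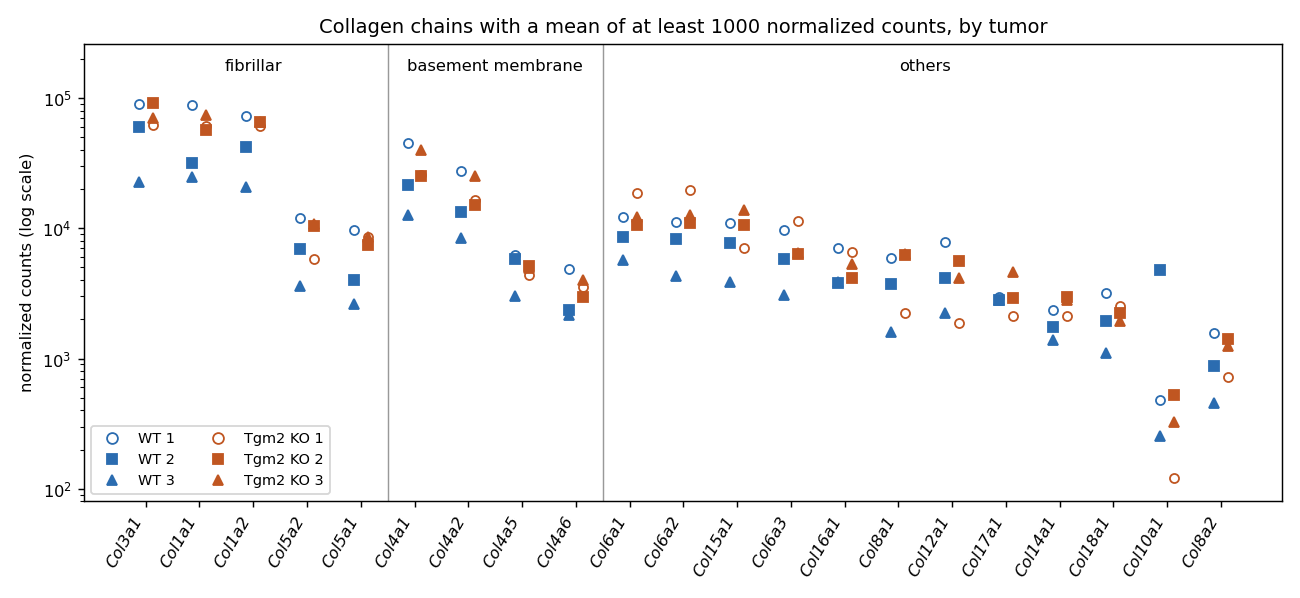
Normalized counts on a log scale of the 21 collagen chains with a mean of at least 1000, by class, with 1 symbol per tumor (WT 1 to 3 in blue, *Tgm2* KO 1 to 3 in orange). WT 3 is the lowest tumor for 17 chains and WT 1 the highest for 12, while *Col10a1* stands apart with 4821 in WT 2.

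The abundant chains varied widely among the WT tumors. Over the 21 chains with a mean of at least 1000, the highest WT tumor exceeded the lowest by a median of 3.28-fold, and the highest *Tgm2* KO tumor the lowest by 1.67-fold. Over the 7256 genes of that abundance the same medians were 1.52 and 1.39. The spread was wider among WT than among *Tgm2* KO tumors for 20 of the 21 chains (95.2%, against 65.4% of those genes), *Col17a1* being the exception. Over all 42 chains, scarce ones included, it was wider among the WT tumors for 29. For 11 of the 21 abundant chains (52.4%, against 23.4% of the genes of that abundance) all *Tgm2* KO values lay inside the WT range. With 3 tumors per group this is a description of these tumors, and the chains are not independent of each other, since the same 3 WT tumors set the spread of each.

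Summed over the class, the fibrillar chains came to 274538, 145526 and 75444 normalized counts in WT 1 to 3 and to 200726, 233082 and 230595 in *Tgm2* KO 1 to 3. These sums weight long and abundant chains most, and they put the *Tgm2* KO tumors close together and within the WT range. The basement membrane chains came to 83654, 43122 and 26343 in the WT and to 50743, 48703 and 74059 in the *Tgm2* KO tumors. The others came to 76972, 55609 and 32904 in the WT and to 80734, 65636 and 72819 in the *Tgm2* KO tumors, where only *Tgm2* KO 1 exceeded WT 1. In each class WT 1 was the highest of the WT tumors and WT 3 the lowest.

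**Figure D3:**
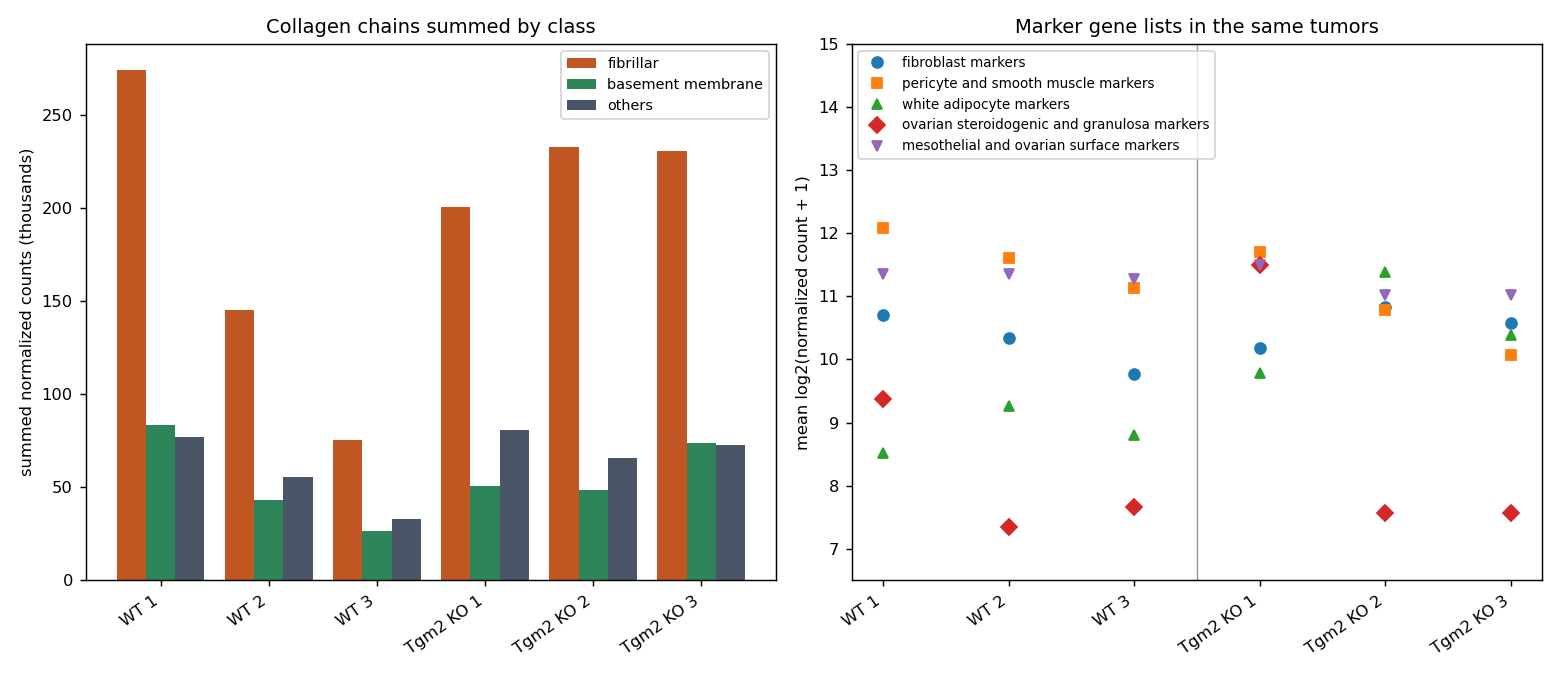
Left, summed normalized counts (axis in units of 1000) of the fibrillar, basement membrane and other collagen chains in each of the 6 tumors; right, mean log2(normalized count + 1) of 5 marker gene lists in the same tumors. The fibrillar sum is lowest in WT 3 (75444) and highest in WT 1 (274538), the fibroblast markers are also lowest in WT 3 (9.77), and the steroidogenic and granulosa markers are highest in *Tgm2* KO 1 (11.50).

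Type IV chains form the network of basement membranes in 3 kinds of trimer, of which the one of *Col4a1* and *Col4a2* is found in nearly all basement membranes. The 2 genes lie head to head on chromosome 8 (chr8:11198423-11312826, minus strand, and chr8:11312805-11449287, plus strand), and in the annotation their ends overlap by 22 bases. *Col4a1* was at 44821, 21627 and 12550 normalized counts in WT 1 to 3 and at 25604, 25338 and 39761 in *Tgm2* KO 1 to 3, and *Col4a2* was at 27662, 13240 and 8439 and at 16529, 15130 and 25200. The *Tgm2* KO tumors lay inside the WT range for both, and the log2 fold changes were 0.36 ± 0.46 and 0.34 ± 0.43 (SE, n = 3 per group; limma adjusted p = 0.928 and 0.926). Without WT 3 they were -0.08 and -0.05.

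*Col4a5* and *Col4a6*, which form the type IV network of some epithelial and smooth muscle basement membranes, lie 1308 bases apart on chromosome X. *Col4a5* was at 6196, 5821 and 3040 normalized counts in the WT and at 4394, 5165 and 4950 in the *Tgm2* KO tumors. *Col4a6* was at 4878, 2362 and 2168 in the WT and at 3533, 2989 and 3998 in the *Tgm2* KO tumors. Neither separated the groups, and the log2 fold change of *Col4a5*, 0.01 ± 0.29 (SE, n = 3 per group; 95% interval -0.64 to 0.67; limma adjusted p = 0.996), was among the smallest of all chains and was -0.011 when the columns were rescaled to the same total.

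*Col4a3* and *Col4a4*, known from the basement membranes of the kidney glomerulus, were scarce apart from 1 tumor. *Col4a3* was at 29.3, 22.9 and 36.8 normalized counts in the WT and at 147, 21.7 and 42.4 in the *Tgm2* KO tumors. *Col4a4* was at 67.2, 50.7 and 109 in the WT and at 536, 59.4 and 107 in the *Tgm2* KO tumors. Both genes, which start 71 bases apart on opposite strands, were highest in *Tgm2* KO 1, by 3.47-fold and 4.91-fold over the next tumor. Their log2 fold changes of 0.81 ± 0.75 and 1.06 ± 0.79 (SE, n = 3 per group; limma adjusted p = 0.908 and 0.896) were 0.06 and 0.14 without *Tgm2* KO 1.

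Among the others, type VI collagen, which forms beaded filaments next to cells, was the most abundant per length. *Col6a1* (chr10:76708792-76726168) and *Col6a2* (chr10:76595762-76623630), both on the minus strand and 85161 bases apart, averaged 2752 and 2400 normalized counts per kilobase. *Col6a2* was at 11130, 8241 and 4280 normalized counts in WT 1 to 3 and at 19752, 10986 and 12600 in *Tgm2* KO 1 to 3. Only *Tgm2* KO 2 fell below WT 1, and the log2 fold change was 0.93 ± 0.38 (SE, n = 3 per group; 95% interval 0.06 to 1.80; limma adjusted p = 0.826). Without WT 3 it was 0.55. *Col6a1* was at 12203, 8512 and 5677 in the WT and at 18497, 10566 and 12239 in the *Tgm2* KO tumors, with a log2 fold change of 0.67 ± 0.33 (SE, n = 3 per group; limma adjusted p = 0.887), which was 0.39 without WT 3. *Col6a3*, the longest of the major type VI chains, was at 9627, 5795 and 3100 in the WT and at 11472, 6352 and 6420 in the *Tgm2* KO tumors, and its log2 fold change was 0.48 ± 0.42 (SE, n = 3 per group; limma adjusted p = 0.904). Without WT 3 the value for *Col6a3* was 0.056, without *Tgm2* KO 1 it was 0.20 and without WT 1 it was 0.87. In all 3 chains *Tgm2* KO 1 was the highest tumor and WT 3 the lowest.

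The further type VI chains lie in a row on chromosome 9 (*Col6a6*, *Col6a5* and *Col6a4*, with 27917 and 28810 bases between them) and were less abundant. *Col6a4* was at 337, 690 and 631 normalized counts in the WT and at 3264, 215 and 59.2 in the *Tgm2* KO tumors, a 55.1-fold spread inside the *Tgm2* KO group. The mean was higher in the *Tgm2* KO group (1179 ± 1807 against 553 ± 189, SD, n = 3) while the log2 fold change was -0.60, since 1 tumor carried the mean. *Col6a5* was highest in WT 1 at 327, with 22.3 to 109 elsewhere, and *Col6a6* ranged from 58.7 to 150 in the WT and from 121 to 296 in the *Tgm2* KO tumors.

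Type XV and type XVIII collagen, the multiplexins, sit at the border of basement membranes and connective tissue. *Col15a1* was at 10910, 7678 and 3867 normalized counts in the WT and at 7051, 10582 and 13779 in the *Tgm2* KO tumors. *Col18a1*, whose end fragment is endostatin, was at 3166, 1947 and 1109 in the WT and at 2542, 2237 and 1954 in the *Tgm2* KO tumors. Both overlapped between the groups, and the log2 fold change of *Col15a1* was 0.56 ± 0.40 (SE, n = 3 per group; limma adjusted p = 0.896). It was 0.14 without WT 3, 0.33 without *Tgm2* KO 3 and 0.89 without WT 1.

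The chains of fibril-associated collagens, which coat fibrils, had a median log2 fold change of -0.01 over 7 members, with 3 higher and 4 lower. *Col14a1* was at 2371, 1739 and 1378 normalized counts in the WT and at 2131, 2987 and 2791 in the *Tgm2* KO tumors, with only *Tgm2* KO 1 inside the WT range, and its log2 fold change was 0.55 ± 0.25 (SE, n = 3 per group; 95% interval -0.02 to 1.12; limma adjusted p = 0.880), which was 0.36 without WT 3. *Col12a1* had the higher mean in the WT tumors, at 7901, 4158 and 2237 against 1877, 5590 and 4178, and *Col16a1* was at 7025, 3829 and 3858 against 6570, 4187 and 5287. Neither separated the groups. The type IX chains *Col9a2* and *Col9a3*, known from cartilage, stood out in single tumors, where *Col9a2* was at 487 in *Tgm2* KO 1 against 11.5 to 71.4 elsewhere, and *Col9a3* at 207 in WT 3 against 34.6 to 92.6 elsewhere. *Col20a1* was likewise highest in WT 3, at 193, and *Col22a1* was at most 52.1.

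The short chain collagens form lattices, in vessel walls and other sites for type VIII and in growth plate cartilage for type X. *Col8a1* was at 5926, 3759 and 1592 normalized counts in the WT and at 2234, 6247 and 6364 in the *Tgm2* KO tumors, and *Col8a2* was at 1575, 877 and 452 and at 725, 1401 and 1242. In both, *Tgm2* KO 1 was nearer to the low WT tumors than to the other *Tgm2* KO tumors. *Col10a1* (chr10:34389981-34397085) was at 480, 4821 and 256 in the WT and at 120, 522 and 323 in the *Tgm2* KO tumors. WT 2 thus exceeded the next tumor by 9.24-fold, and the log2 fold change of -1.62 ± 1.01 (SE, n = 3 per group; limma adjusted p = 0.891) was -0.36 without it and -4.77 with the mean of the white adipocyte markers as a covariate. That covariate separated the groups, so its part and that of genotype cannot be told apart. The cartilage marker *Acan*, a cartilage proteoglycan, was at 20.0 in WT 2 and at 1.92 to 39.1 elsewhere.

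The last chains span the membrane, anchor epithelia or belong to no larger class. *Col17a1*, of the hemidesmosome, was at 2975, 2794 and 2835 normalized counts in the WT and at 2137, 2900 and 4576 in the *Tgm2* KO tumors, the narrowest WT range of all 42 chains (1.06-fold). *Col7a1*, of anchoring fibrils, was at 546, 252 and 654 in the WT and at 792, 124 and 201 in the *Tgm2* KO tumors. *Col13a1*, *Col23a1* and *Col25a1* ranged from 8.29 to 93.4, from 50.8 to 178 and from 5.92 to 36.1 over the 6 tumors. *Col28a1*, a chain found next to peripheral nerve and other basement membranes, was at 115, 37.9 and 46.8 in the WT and at 82.4, 174 and 229 in the *Tgm2* KO tumors, with a log2 fold change of 1.32 ± 0.60 (SE, n = 3 per group; 95% interval -0.05 to 2.69; limma adjusted p = 0.879), the largest upward value of the 42. *Col26a1* was at 14.2, 33.5 and 156 in the WT and at 96.2, 29.5 and 5.52 in the *Tgm2* KO tumors. None of these separated the groups.

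**Figure D4:**
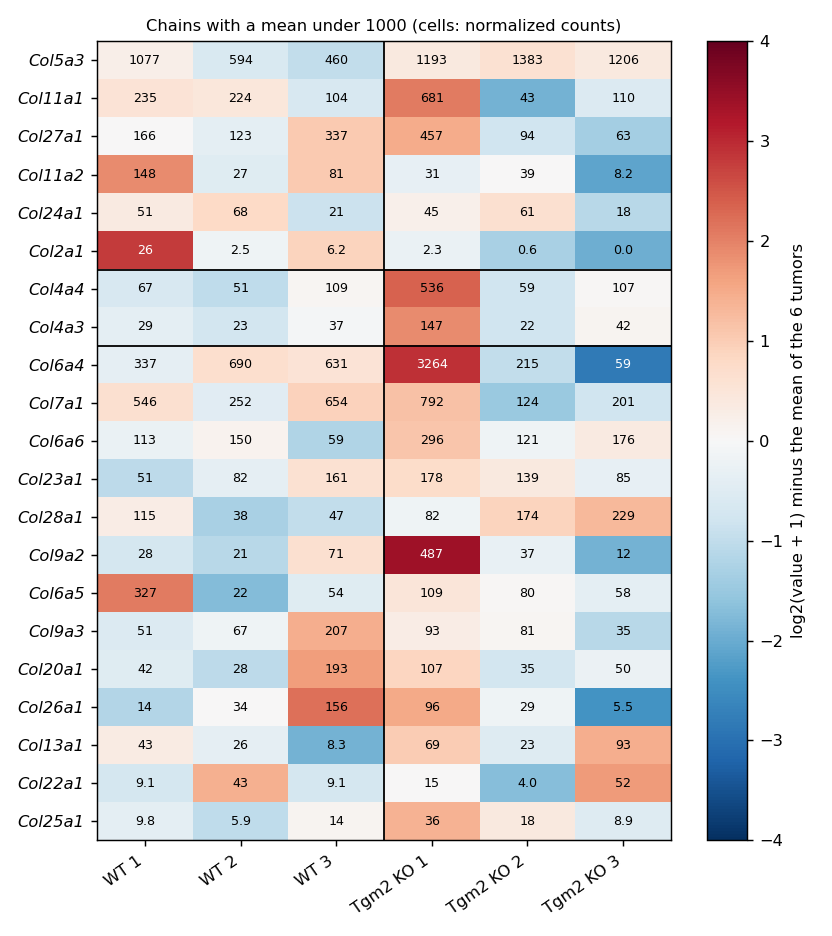
The 21 collagen chains with a mean under 1000, with normalized counts printed in each cell and color for log2(value + 1) minus the mean of the 6 tumors (lines divide fibrillar, basement membrane and other chains, and WT from *Tgm2* KO). Single tumors stand out, such as *Tgm2* KO 1 for *Col6a4* (3264), *Col9a2* (487) and *Col4a4* (536), and *Col5a3* is the only chain higher in every *Tgm2* KO tumor.

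*Tgm2* KO 1, in which 10 of the 21 scarce chains were highest, was also the tumor with the highest steroidogenic and granulosa markers. The 11 tested markers of 12 had a mean log2 value of 9.37, 7.35 and 7.66 in WT 1 to 3 and of 11.50, 7.57 and 7.57 in *Tgm2* KO 1 to 3, and their summed normalized counts were 28332, 18454, 10576, 77696, 15183 and 18917 in the same order. *Star*, the cholesterol carrier, was the most abundant of them on average and did not follow this order, at 5340 in *Tgm2* KO 1 and 4223 to 8970 elsewhere. *Fshr*, the receptor of follicle-stimulating hormone and a defining marker of granulosa cells, was at 162 in *Tgm2* KO 1, at 11.4 in WT 1 and at 0 in the other 4 tumors. *Foxl2*, a granulosa transcription factor, was at 1282 in *Tgm2* KO 1 against 23.7 to 219 elsewhere. The part of ovarian tissue in the collagen values of *Tgm2* KO 1 was not tested. Without that tumor the median log2 fold change of the 42 chains was 0.22.

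Chains that join the same molecule were compared as a log2 ratio within each tumor, a quantity that does not depend on the scaling between tumors. Over 8 pairs, none of the ratios passed the test between the groups (two-sided exact permutation tests, Benjamini-Hochberg adjusted p = 0.8 for each of the 8 pairs). The ratio of *Col4a1* to *Col4a2* was the steadiest, at 1.58, 1.59 and 1.45 per kilobase in WT 1 to 3 and 1.51, 1.63 and 1.54 in *Tgm2* KO 1 to 3, although each chain varied 3.28-fold or more among the WT tumors. Over the 6 tumors it was 1.55 ± 0.065 (SD), and the log2 ratio differed by 0.02 between the groups. The ratio of *Col1a1* to *Col1a2* per kilobase was 0.927 ± 0.17 (SD, n = 6) and ranged from 0.673 in WT 2 to 1.10 in WT 1, with a difference of -0.04 in the log2 ratio between the groups.

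The ratio of *Col6a1* to *Col6a2* was the only one whose groups did not overlap. The log2 ratio was 0.13, 0.05 and 0.41 in WT 1 to 3 and -0.09, -0.06 and -0.04 in *Tgm2* KO 1 to 3, a difference of -0.26 (exact permutation test p = 0.1, the smallest possible; adjusted p = 0.8 over the 8 pairs). Without WT 3 it was -0.15. The ratio of *Col5a1* to *Col5a2* stood apart in *Tgm2* KO 1, where its log2 value was 0.56 against -0.79 to -0.30 elsewhere. Its difference between the groups, 0.43, was the largest in size of the 8 pairs, with overlap (exact permutation test p = 0.5). That difference was 0.10 without *Tgm2* KO 1 and 0.63 without *Tgm2* KO 2. The log2 ratios of *Col6a3* to *Col6a1*, *Col8a1* to *Col8a2*, *Col4a3* to *Col4a4* and *Col4a5* to *Col4a6* differed between the groups by -0.19, 0.10, -0.25 and -0.24, with overlap in each. Without each tumor in turn these differences ranged from -0.34 to -0.071, from -0.053 to 0.31, from -0.38 to -0.083 and from -0.42 to 0.054, and that of *Col4a3* to *Col4a4* was smallest without *Tgm2* KO 1.

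**Figure D5:**
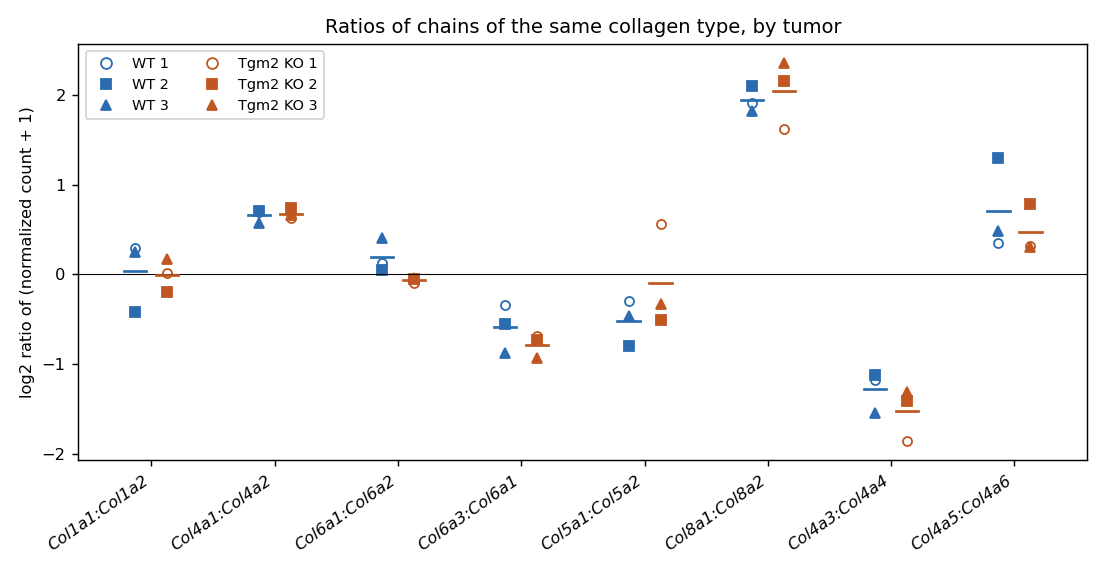
Log2 ratio of (normalized count + 1) of 8 pairs of chains of the same collagen type, 1 symbol per tumor (WT in blue, *Tgm2* KO in orange), with lines for the group means (n = 3). *Col4a1* to *Col4a2* keeps within 0.57 and 0.74 in all tumors, *Col6a1* to *Col6a2* is below 0 in all *Tgm2* KO tumors and above 0 in all WT tumors, and *Col5a1* to *Col5a2* is above 0 in *Tgm2* KO 1 only.

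The genes that make, process and bind collagen were read from 5 lists, and none of their genes passed the limits. Of the 21 genes that hydroxylate, glycosylate and fold the chains, 0 had an unadjusted p under 0.05 in either direction (against 5.78% of all tested genes), and their median log2 fold change was 0.13. *P4hb*, the shared subunit of prolyl 4-hydroxylase and the most abundant of them, was at 45949, 58557 and 31494 normalized counts in WT 1 to 3 and at 31941, 48725 and 36653 in *Tgm2* KO 1 to 3. *Serpinh1*, the collagen chaperone HSP47, was lowest in WT 3, at 13839 against 33331 to 47637 elsewhere, like the abundant chains. Of the 9 tested genes for removal of the propeptides, 0 passed an unadjusted p of 0.05 (against 5.78% of all tested genes) and the median was -0.19. Lists of this size hold so few genes at that share that a count of 0 does not set them apart. *Pcolce*, the enhancer of the C-proteinase and the most abundant of these, was also lowest in WT 3, at 12027 against 15789 to 26073 elsewhere.

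Of 14 fibril-associated proteoglycans and regulators, 1 had an unadjusted p under 0.05, higher in the *Tgm2* KO tumors (7.14%, near the 5.78% of all tested genes in either direction), and the median log2 fold change was 0.28. This was *Lum*, which codes for lumican, a proteoglycan that binds fibrils, at 3860, 4341 and 2503 normalized counts in the WT and at 7319, 8044 and 3946 in the *Tgm2* KO tumors (log2 fold change 0.82 ± 0.32, SE, n = 3 per group; limma adjusted p = 0.819). *Sparc*, a collagen-binding matrix protein and the most abundant of the list, was at 158052, 172941 and 54661 in the WT and at 89643, 154147 and 126608 in the *Tgm2* KO tumors. It too was lowest in WT 3. Of 21 partners of collagen IV in basement membranes, 3 were higher and 1 was lower at an unadjusted p under 0.05, against 3.4% and 2.38% of all tested genes, with a median of 0.38. The 3 higher ones were *Lama2*, a laminin chain, *Nid1*, which links laminin to collagen IV, and *Smoc1*. *Hspg2*, the gene of perlecan and the most abundant of these, ranged from 13477 to 34305 with overlap between the groups. Of 12 collagen receptors, 1 was lower at an unadjusted p under 0.05 (against 2.38% of all tested genes), the integrin gene *Itga10*, and the median was -0.02. *Itgb1*, the beta subunit shared by the collagen-binding integrins, ranged from 16170 in WT 3 to 34559 in WT 1.

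Marker lists of cells that can make collagen were read beside the chains, and their lowest tumors differed. By mean log2 value, the pericyte and smooth muscle list was lowest in *Tgm2* KO 3 (10.07). The endothelial list was lowest in WT 2 (9.59) and the white adipocyte list in WT 1 (8.52). The leukocyte and macrophage lists, described below, were lowest in WT 3 (10.07 and 10.58), so a low in WT 3 was not particular to fibroblast markers. The 15 fibroblast markers, which hold no collagen gene, had a mean log2 value of 10.70, 10.34 and 9.77 in WT 1 to 3 and of 10.18, 10.83 and 10.57 in *Tgm2* KO 1 to 3, and summed to 65906, 50689 and 32189 normalized counts and to 53533, 74314 and 67980. By mean and by sum they were lowest in WT 3, as 17 of the 21 abundant chains were, and none was at 0 in any tumor. Not every fibroblast marker followed this. *Fap*, *Thy1*, *Twist2* and *Lrrc15* were lowest in *Tgm2* KO 1, *Pi16* in WT 2 and *Tcf21* in WT 1. *Gsn*, gelsolin, the most abundant of them, was at 17536, 16619 and 10180 in the WT and at 23751, 31569 and 28655 in the *Tgm2* KO tumors (log2 fold change 0.95 ± 0.29, SE, n = 3 per group; limma adjusted p = 0.682). In all, 3 of the 15 (*Gsn*, *Pdgfra* and *Dpep1*) were higher at an unadjusted p under 0.05 and 0 lower, against 3.4% and 2.38% of all tested genes, with a median of 0.21. The part of fibroblast number in the collagen values was not tested.

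The 13 pericyte and smooth muscle markers had a median log2 fold change of -0.67, with 0 higher and 3 lower at an unadjusted p under 0.05, and 0 past the limits. Over all tested genes, 3.4% were higher and 2.38% lower at that p, and 0.102% were higher past the limits, the background of this list and those that follow. *Acta2*, smooth muscle actin and the most abundant of them, was at 29399, 21571 and 9176 normalized counts in the WT and at 25933, 9856 and 4333 in the *Tgm2* KO tumors, and did not separate the groups. The 3 lower ones were *Tagln*, *Des* and *Smtn*, genes of contractile cells. *Tagln* was at 18854, 27320 and 23830 in the WT and at 15043, 9948 and 4640 in the *Tgm2* KO tumors, every *Tgm2* KO tumor below every WT tumor, with a log2 fold change of -1.38 ± 0.41 (SE, n = 3 per group; limma adjusted p = 0.670). *Des*, desmin, had a log2 fold change of -1.70 and *Smtn*, smoothelin, one of -0.67, both with overlap between the groups. *Kcnj8*, a potassium channel gene of pericytes, also lay lower in every *Tgm2* KO tumor, at 233 to 367 against 396 to 551, with a log2 fold change of -0.65 and an unadjusted limma p of 0.055. The pericyte genes of the list did not move as one. *Rgs5*, *Abcc9* and *Notch3* had log2 fold changes of 0.04, 0.26 and 0.61, and *Cspg4* and *Mcam* of -0.23 and -0.12, with overlap between the groups in each. The part of smooth muscle content in the collagen values was not tested. The 14 endothelial markers, led by *Pecam1*, had a median of 0.38 with 1 higher, the cadherin gene *Cdh5*, and 0 lower. The 12 tested mesothelial and ovarian surface markers, led by *Wt1*, had a median of -0.03 with 0 higher and 1 lower, *Upk1b*, a uroplakin gene also expressed by mesothelium, at 407 to 613 in the *Tgm2* KO against 745 to 1243 in the WT tumors. The 25 white adipocyte markers had a median of 1.58, with 18 higher (against 3.4%) and 0 lower, and 1 past the limits (against 0.102%), *Lep*, the gene of leptin. Their mean log2 value was 8.52, 9.26 and 8.80 in the WT and 9.79, 11.39 and 10.38 in the *Tgm2* KO tumors, and *Cidea* was at 0 in WT 1 and *Tgm2* KO 3. *Lpl*, lipoprotein lipase, was the most abundant of them. The 8 tested cartilage markers, led by *Sox9*, the 9 tested skeletal muscle markers, led by *Actn3*, and the 8 tested peripheral glia markers, led by *Mbp*, had medians of 0.40, -0.02 and -0.02, with 0, 1 and 0 higher and 0 lower in each.

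Immune cell lists were read for the same tumors. The 13 plasma cell markers had a median of 0.97, with 7 higher at an unadjusted p under 0.05 (against 3.4% of all tested genes) and 3 past the limits (against 0.102%), *Jchain*, *Mzb1* and *Pou2af1*. The 12 leukocyte markers, led by *Laptm5*, and the 12 macrophage markers, led by *Lyz2*, had medians of 0.53 and 0.45, each with 2 higher (against 3.4%), 0 lower (against 2.38%) and 0 past the limits. The higher ones were *Cd52* and *Dock2* among the leukocyte and *Mertk* and *Cd163* among the macrophage markers.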

How the data were processed

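Primary tumors, 3 of WT and 3 of *Tgm2* KO mice, were compared, grouped by the genotype in their labels. Each column was matched to its tumor by group and replicate number. PolyA-enriched RNA was sequenced as paired reads. The authors quantified transcripts with kallisto (version 0.46.2 and the GRCm38 build per the submitters' processing notes), mapped them to genes with biomaRt, dropped weakly expressed genes and scaled the rest by DESeq2 size factors (estimateSizeFactors). What the authors deposited is therefore a signal, in normalized counts per gene and tumor. The table is labelled TPM, but its columns sum to between 32316613 and 37717165 and size factors recomputed on it are the same, 1.00, in all 6 columns, so the values were read as normalized counts and the planned tests on log2 values were kept. Low values were whole numbers of reads, within 0.1 read, for 94.9% to 99.2% of genes with 1 transcript but for 70.4% to 80.4% of all genes, so no count model was fitted.

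Testing used log2(value + 1) and the 19667 of 20076 genes that reached 1 normalized count in 3 or more tumors. limma 3.58.1 in R 4.3.3 was fitted to all 6 tumors with 1 contrast, no covariate and a variance trend; tests were two-sided and p-values were adjusted by Benjamini-Hochberg across all genes tested. The limits were an adjusted p under 0.05 and a log2 fold change over 1 in size. Fold changes are on the log2(value + 1) scale and understate those of scarce genes. Partner chains were compared by exact permutation tests in Python 3.11.15 with scipy 1.17.1, and 3 tumors against 3 cannot give a p below 0.1. On simulated data with 19725 genes, 200 of them changed by a log2 fold change of 4, the fit recovered 84.5% of these and called 12 others.

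Levels per kilobase used the longest coding transcript of GENCODE M21 (GRCm38), in which all 42 chains were matched by symbol. Genes of known collagen chains that were not rows of the table, such as Col9a1, were not analysed here. The members, the classes, the 17 gene lists and the tests were chosen with earlier results of these data known. The lists were described by counts and medians, with no test of a list, and *Dpt* is in both the fibroblast and the proteoglycan list. Genes were named by rule: *Tgm2*, the 5 most abundant chains of each class, the 5 chains with the smallest p in each direction, the chains of the 8 pairs, and the most abundant gene and any gene past the limits of each list. Any gene outside this rule, such as *Col6a4* or *Fshr*, was picked with its values in view. Values of 1 listed gene are not reported here. p-values measure the spread between these tumors. Other pseudocounts, filters, scalings, variance models and covariates were tried, and each tumor was left out in turn.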

Additional observations from a re-analysis of the deposited data

How the results depend on the processing

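No collagen chain passed the limits under any of the 16 alternatives, and the lowest adjusted p of the 26 chains named by rule was 0.377 (limma). With all tumors kept, 21 of the 26 kept 1 sign of the log2 fold change, and without each tumor in turn 19 did. The count of all genes higher past the limits, 20, was 5 with the replicate number as a block, 4 without a variance trend and 1 with the mean of the white adipocyte markers as a covariate. Without each tumor in turn it ranged from 2 to 14, and the count of lower genes from 0 to 1. The 2 chains higher at an unadjusted p under 0.05 were 7 with the adipocyte covariate and 1 without a variance trend, and the 1 lower chain was 0 with a pseudocount of 10 and with a filter of at least 10 in 3 tumors. Leaving out single tumors gave 0 (without WT 2 or WT 3) to 9 (without WT 1) higher and 0 to 4 (without *Tgm2* KO 1) lower. With the adipocyte covariate the median log2 fold change was 0.90 for all chains, 0.82 for the fibrillar, 0.88 for the basement membrane and 1.02 for the other chains, and 5 named chains changed sign: *Col4a5* (-0.20), *Col5a2* (-0.060), *Col7a1* (1.90), *Col8a1* (-0.53) and *Col8a2* (-0.16). Others moved by over 1.5 times with their sign kept, to 0.21 for *Col3a1*, 1.29 for *Col1a1*, 0.80 for *Col4a1*, 0.89 for *Col4a2*, 3.18 for *Col4a3*, 3.80 for *Col4a4*, 0.87 for *Col4a6*, 1.40 for *Col5a1*, 1.48 for *Col6a1*, 1.71 for *Col6a2*, 1.34 for *Col6a3*, -0.52 for *Col2a1*, -4.77 for *Col10a1*, 0.30 for *Col14a1*, 0.29 for *Col15a1* and 1.02 for *Col16a1*. The adipocyte covariate was higher in every *Tgm2* KO tumor than in every WT tumor, so its part and that of genotype cannot be told apart. The cause was not tested. *Col2a1* was -3.78 with a pseudocount of 0.1 and -0.83 with one of 10, and *Col3a1* was 0.35 after quantile normalization. *Col4a5* was also -0.011 with columns rescaled to the same total and -0.00094 after quantile normalization.

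Without each tumor in turn, the median ranged from 0.046 (without WT 3) to 0.77 (without WT 1) for all chains, from -0.033 to 0.78 for the fibrillar, from -0.0071 to 0.81 for the basement membrane and from 0.12 to 0.64 for the other chains. The log2 fold change ranged from 0.0061 to 1.001 for *Col3a1*, 0.27 to 1.19 for *Col1a1*, 0.21 to 1.11 for *Col1a2*, -0.075 to 0.84 for *Col4a1*, -0.051 to 0.81 for *Col4a2*, -0.32 to 0.20 for *Col4a5*, 0.37 to 1.32 for *Col5a1*, -0.081 to 0.78 for *Col5a2*, 0.056 to 0.87 for *Col6a3*, -0.081 to 0.94 for *Col8a1*, -0.12 to 0.78 for *Col8a2*, -0.88 to 0.12 for *Col9a3* and 0.14 to 0.89 for *Col15a1*. The difference in log2 ratio ranged from -0.27 to 0.084 for *Col1a1* to *Col1a2*, -0.024 to 0.043 for *Col4a1* to *Col4a2*, -0.38 to -0.083 for *Col4a3* to *Col4a4*, -0.34 to -0.071 for *Col6a3* to *Col6a1*, -0.053 to 0.31 for *Col8a1* to *Col8a2* and -0.42 to 0.054 for *Col4a5* to *Col4a6*.

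Tumors with the same replicate number did not deviate together (correlations of -0.28, 0.36 and -0.38), so the numbers were not taken to pair the tumors. The block gave 5 genes higher past the limits and no collagen chain. For chains that varied widely among the WT tumors, such as *Col1a1* and *Col3a1*, the 95% intervals include differences of 1 on the log2 scale, and chains under 10 normalized counts rest on few reads.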
